A study of Mus musculus with 6 samples.

Results

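The genes described here are 34 components of protein folding and quality control in the endoplasmic reticulum (ER), chosen by name from a table of 54532 genes, and all 34 were found in it. They fall into 16 chaperones and folding enzymes, 3 sensors and transcription factors of the unfolded protein response, 8 genes of ER-associated degradation (ERAD), 6 genes of protein translocation and the modifier gene Ufm1. RNA was sequenced from primary macrophages of wild-type (WT) mice, labelled as 3 vehicle samples and 3 rmMETRNL samples. The rmMETRNL samples had received rmMETRNL, named after the secreted protein METRNL (meteorin-like), for 6 h, and the cells of both groups then met the yeast Candida albicans for 6 h. No group without the fungus was analysed here, so the values compare pretreatments after the same challenge. The labels do not give the age of the mice, the tissue the macrophages came from or whether samples came from separate animals, so the tests weigh differences against a sample-to-sample spread that may be only technical. Which table columns are vehicle and which are rmMETRNL was worked out from the letters of the column names, and the sign of every difference depends on it.

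Secreted and membrane proteins enter the ER through the Sec61 channel, fold with the help of chaperones and disulphide isomerases, and are drawn back to the cytosol for destruction when folding fails. When unfolded proteins build up, the membrane sensors IRE1 (Ern1), ATF6 and PERK start the unfolded protein response. IRE1 splices the Xbp1 transcript into the form that encodes an active transcription factor, ATF6 is cut to release another, and both raise transcription of chaperone and ERAD genes. Activated macrophages secrete large amounts of cytokines and depend on this machinery. The values below are levels per gene and cannot separate spliced from unspliced Xbp1.

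A known DNA element links many of these genes. The ER stress response element (ERSE) is CCAAT, 9 free bases and CCACG, and is bound by ATF6 together with the factor NF-Y. It was searched on both strands of windows from 250 bases before to 50 bases after the gene start (RefSeq, GRCm38.p6), which were held for 28 of the 34 genes. Atf6, Derl1, Hyou1, Manf, Sec61a1 and Ssr2 had no window. The ERSE letters occurred in 9 of the 28 (32.1%), namely Hspa5, Hsp90b1, Pdia6, Calr, Canx, Dnajc3, Creld2, Syvn1 and Derl3, against 37 of all 27025 genes with a window (0.137%). The genes were chosen by name for their part in this response, so a high share was likely beforehand and is no finding of these data. Of these 9, 7 encode chaperones or folding enzymes and 2 belong to ERAD, and the letters were not in the windows of Ern1 and Xbp1 or of the translocation genes Sec61b, Sec61g, Ssr1 and Ssr3. The related ERSE-II, which is ATTGG, 1 free base and CCACG, occurred in Herpud1 and Dnajb11 and in 12 genes in all (0.0444%), and the letters TGACGTGG, the core of an element bound by XBP1 and ATF6, occurred in Vcp and in 193 genes in all (0.714%). The full ERSE contains the CCAAT box that NF-Y binds, and ERSE-II contains its reverse complement. The lines below show the elements of Hspa5, Calr, Creld2 and Syvn1, which carry the same letters and differ in how their levels compared between the groups, and the ERSE-II of Herpud1, the gene with the largest positive difference. Each is written 5′ to 3′ on the strand that reads the element, with the matched letters in capitals.
Hspa5 (chr2:34772020-34772049, plus strand): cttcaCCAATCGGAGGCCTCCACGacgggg
Calr (chr8:84847069-84847098, plus strand): tatgggCCAATGAGGGTCGACCACGcgttg
Creld2 (chr15:88819515-88819544, minus strand): tgtggaCCAATTGAGGCTCGCCACGagaag
Syvn1 (chr19:6046527-6046556, plus strand): cgcaaCCAATCGGCGGTAGCCACGggaaca
Herpud1 (chr8:94386368-94386397, plus strand): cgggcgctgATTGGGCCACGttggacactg

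The libraries held between 13235001 and 18145733 reads or read pairs each, recovered from the FPKM values (fragments per kilobase of gene, scaled to library size), and correlated pairwise at r of 0.977 to 0.988 across genes on the log2(FPKM + 1) scale. The 8 macrophage markers checked had a mean of at least 1 FPKM, led by Lyz2 (5127 to 5877 FPKM over the 6 libraries) and Cd14 (2241 to 2712 FPKM). Of 10 retina markers, checked because the extraction text speaks of retinas, 0 reached 1 FPKM, and Opn1mw and Crx were at 0 in every library. Plasma cells are rich in ER genes, and the summed level of 9 B and plasma cell markers was 79.4 to 88.2 FPKM with vehicle and 85.6 to 90.2 FPKM with rmMETRNL. Of these 9, 6 reached a mean of 1 FPKM. Most of the sum was Sdc1 (53.0 to 57.3 FPKM) and Ighm (11.3 to 16.0 FPKM), while Jchain stayed at or below 0.371 FPKM. The 6 neutrophil markers, of which 2 reached 1 FPKM, summed to 105 to 114 FPKM with vehicle and 117 to 124 FPKM with rmMETRNL, nearly all of it S100a8 and S100a9, with Elane at 0 and Mpo at most 0.138 FPKM. T cell (at most 3.94 FPKM), fibroblast (at most 7.78 FPKM), dendritic cell (at most 1.85 FPKM) and mast cell markers (at most 16.1 FPKM) were low in both groups. The part of other cell types in the results below was not tested, and in bulk RNA fewer cells of a type and less RNA per cell cannot be told apart.

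The macrophages expressed nearly the whole machinery. Of the 34 genes, 33 had a mean of at least 1 FPKM, and each of these rested on 232 to 25711 reads per library. P4hb, the abundant protein disulphide isomerase, was highest at 490.5 FPKM over the 6 libraries, followed by Hspa5 (BiP, the ER's Hsp70 chaperone) at 244 FPKM and Calr (calreticulin) at 185 FPKM. These 3 genes made up 51.6% of the summed FPKM of all 34. Canx, Pdia3 and Hsp90b1 followed at 70.3 to 76.0 FPKM. Outside the chaperones the highest were Derl1 (57.4 FPKM) for ERAD, Ssr3 (56.7 FPKM) for translocation and Xbp1 (45.5 FPKM) among the regulators, while Ern1 and Atf6 stood at 14.2 and 13.2 FPKM. Syvn1, the ubiquitin ligase of ERAD also called HRD1, and Derl2 were the lowest expressed ERAD genes above the level tested, at 5.09 and 4.73 FPKM. Derl3 was the exception, with 3, 6 and 5 reads in vehicle libraries 1, 2 and 3 and 3, 2 and 0 reads in rmMETRNL libraries 1, 2 and 3. A count of 0 in that last library allows up to 3 reads, or 0.101 FPKM, and the 2 groups of Derl3 were not compared.

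**Figure D1:**
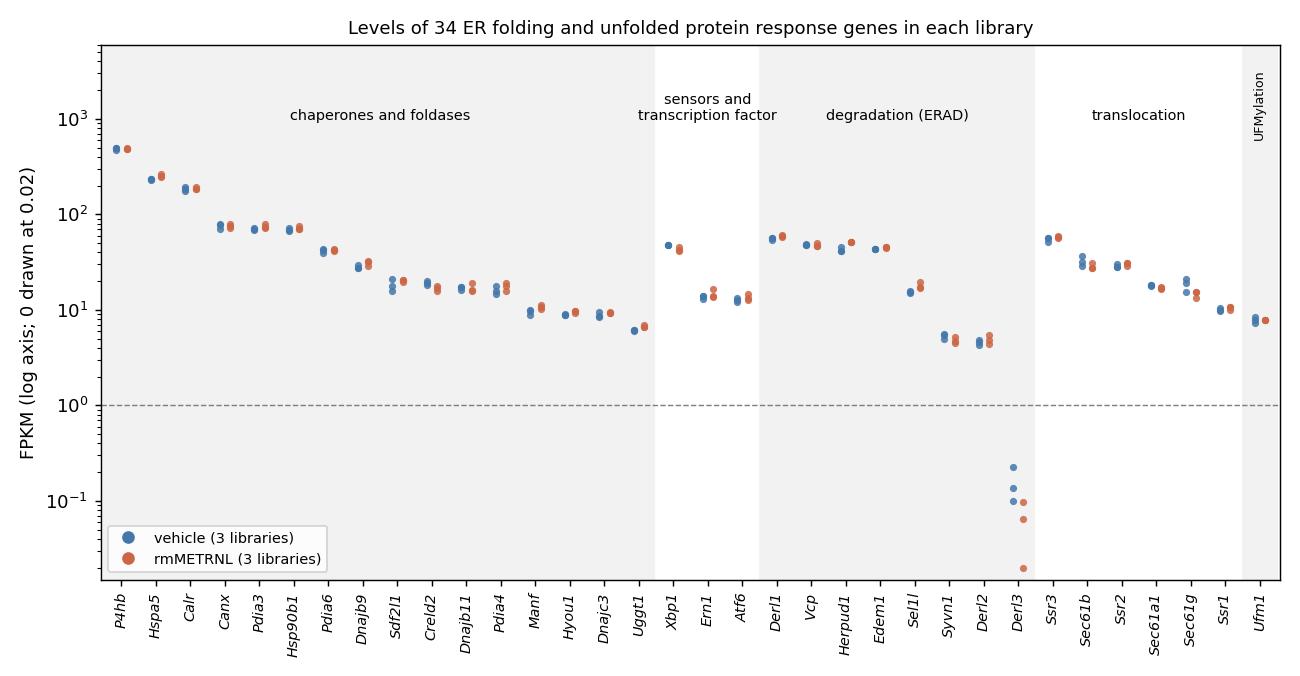
FPKM on a log axis for each of the 34 genes, grouped by role and ordered by mean level, with 1 point per library (blue vehicle, orange rmMETRNL) and the dashed line at the 1 FPKM needed for testing. Levels within a role span from 490.5 FPKM for P4hb to 6.44 FPKM for Uggt1 among the chaperones, only Derl3 lies under the line, and the 2 groups lie close together for every gene above it.

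The comparison asked how these genes differ between macrophages given rmMETRNL and those given vehicle before the fungus. Chaperone and ERAD genes were mostly a few percent higher in the rmMETRNL libraries, while the 3 subunits of the Sec61 channel, Xbp1, Creld2 and Syvn1 had lower values. The sensor genes Ern1 and Atf6 had higher means, mainly through rmMETRNL library 3. None of these differences passed the test. Limma on log2(FPKM + 1), fitted to the 9867 genes that averaged 1 FPKM or more and adjusted over all of them, called 0 of the 33 tested members at an adjusted p of 0.05 (background 0%, 0 of 9867 genes). Limma voom on the recovered reads also called 0 members, where it called 0.618% of all genes. At an unadjusted p under 0.05 limma had 5 members higher (background 7.54%) and 3 lower (background 7.13%). The median log2 fold change over the 33 members was 0.07, against -0.0056 over all genes tested, and 24 of 33 were positive against 48.4% of all genes. The groups did not overlap in 12 members (background 21.5% of genes), of which 8 had all rmMETRNL libraries above all vehicle libraries (background 10.9%) and 4 below (background 10.6%). The 95% intervals of the 33 differences lay between -0.59 and 0.39 on the log2(FPKM + 1) scale. Without rmMETRNL library 2 the median over the members was 0.04, without rmMETRNL library 3 it was also 0.04 and without vehicle library 1 it was 0.05.

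**Figure D2:**
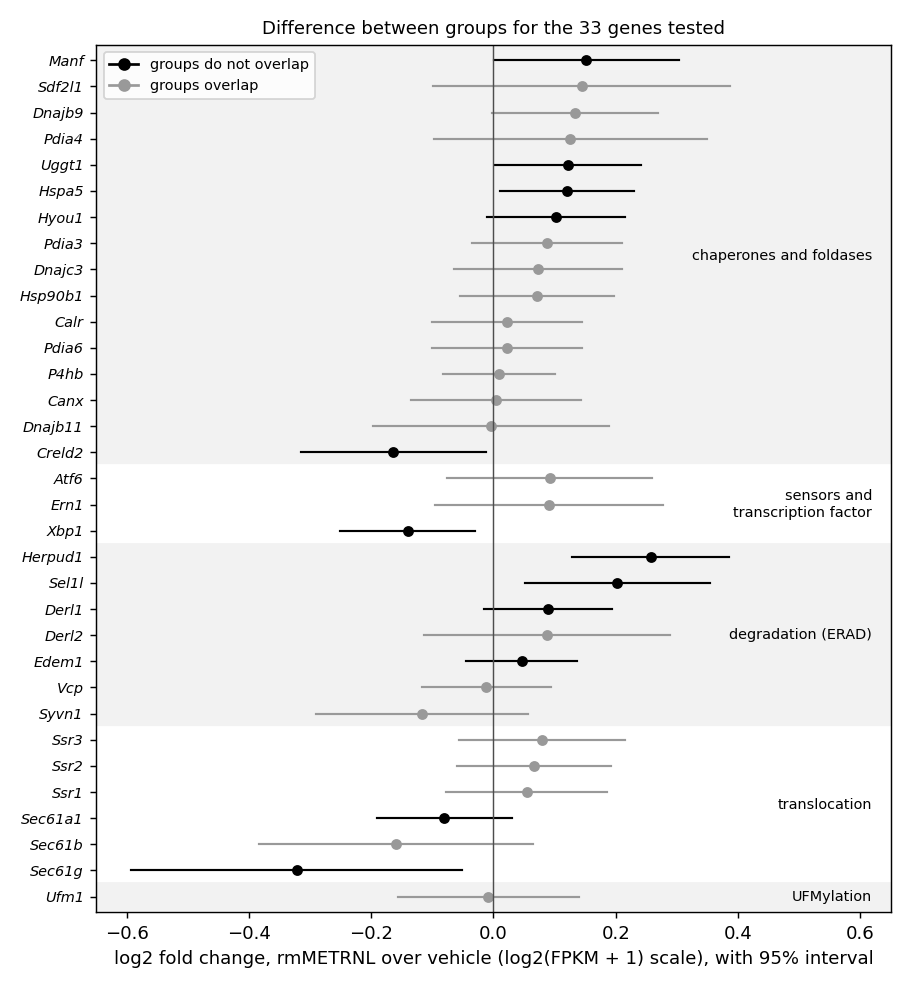
Log2 fold change of rmMETRNL over vehicle (x axis, log2(FPKM + 1) scale) with its 95% interval for the 33 tested genes, ordered within roles, in black where the 2 groups of 3 libraries do not overlap. Most chaperone and ERAD points lie right of 0, led by Herpud1 at 0.26, and Xbp1, Creld2 and the 3 Sec61 genes lie left of it, down to -0.32 for Sec61g.

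The chaperones and folding enzymes had a median log2 fold change of 0.08, with 14 of 16 positive (48.4% of all genes), 4 wholly above the vehicle range (background 10.9%) and 1 wholly below it (background 10.6%), and 0 passed (lowest adjusted p = 0.319 in limma). Hspa5 (ENSMUSG00000026864, chromosome 2, 34771970 to 34777547, GRCm38), which also holds the sensors inactive when folding is in balance, stood at 229, 237 and 236 FPKM in the vehicle libraries and 249.7, 267 and 246 FPKM in the rmMETRNL libraries. All 3 rmMETRNL values exceeded all 3 vehicle values, and library 2 was the highest. The means were 234 ± 4.28 and 254 ± 11.4 FPKM (SD, n = 3), which is 0.12 ± 0.05 (SE) on the log2 scale, with an adjusted p of 0.319 in limma.

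The other chaperones with wholly higher values were less abundant. Hyou1, a large chaperone that exchanges nucleotide on BiP, measured 8.80, 8.76 and 8.96 FPKM in the vehicle libraries and 9.30, 9.64 and 9.74 FPKM in the rmMETRNL libraries. Uggt1, the glucosyltransferase that marks unfolded glycoproteins for another round with calnexin and calreticulin, had 6.20, 6.15 and 6.02 FPKM against 6.65, 6.67 and 6.94 FPKM. The group means differed by 8.14% for Hyou1 and 10.3% for Uggt1, with adjusted p of 0.380 and 0.333 in limma. The values were close within groups. That spread was smaller than read counting alone would leave, so it is not a measure of precision. Manf, a secreted ER stress protein that binds BiP, measured 9.89, 8.87 and 9.74 FPKM in the vehicle libraries and 11.2, 10.7 and 10.1 FPKM in the rmMETRNL libraries, a difference of 0.15 ± 0.06 (SE) on the log2 scale with an adjusted p of 0.338 in limma. Its lowest rmMETRNL value lay just above its highest vehicle value, and 9.25% of its exon bases are shared with a gene on the other strand.

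Creld2, an ER-resident protein induced by ER stress, went the other way. It stood at 19.1, 20.0 and 18.1 FPKM with vehicle and 17.0, 17.9 and 15.8 FPKM with rmMETRNL, so that every rmMETRNL value was below every vehicle value. The means were 19.1 ± 0.930 and 16.9 ± 1.06 FPKM (SD, n = 3), which is -0.16 ± 0.06 (SE) on the log2 scale, with an adjusted p of 0.320 in limma. With the libraries rescaled to TPM (length-scaled values with the same total in every library) its groups overlapped.

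The most abundant folding genes were close to level. P4hb measured 477, 496 and 494 FPKM in the vehicle libraries and 489, 502 and 485 FPKM in the rmMETRNL libraries, and the groups overlapped throughout. Its log2 fold change was 0.01, with a 95% interval of -0.08 to 0.10, and its sign turned in 3 of 15 alternative settings. Settings that change only the filter, the mean-variance trend or the replicate block cannot alter a fold change, so they say nothing about its sign. Calr (0.02), Canx (0.00), Pdia6 (0.02) and Dnajb11 (-0.00), a co-chaperone of BiP, also had log2 fold changes near 0, and each turned sign in at least 1 of the 15 settings. Hsp90b1 (GRP94, 0.07), Pdia3 (0.09), which works with calnexin and calreticulin, and Pdia4 (0.13) were positive with overlapping groups. So were the BiP co-chaperones Dnajb9 (0.13) and Dnajc3 (0.07), and Sdf2l1 (0.14), whose vehicle values ranged from 15.7 to 21.2 FPKM. Dnajb9 missed separation by its first rmMETRNL library, at 29.0 FPKM against 29.2 FPKM in vehicle library 3. Hsp90b1 shares 15.7% of its exon bases, and the translocation gene Ssr2 12.8%, with a gene on the other strand, and the strand setting is not given in the sources used here.

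Genes with an ERSE included higher, level and lower members. The 8 tested genes with the element had log2 fold changes from -0.16 (Creld2) to 0.12 (Hspa5), with a median of 0.02 and 1 gene wholly above and 1 wholly below the vehicle range. The 19 tested genes with a window and no ERSE had a median of 0.08, with 4 wholly above and 2 wholly below. These 19 include Herpud1 and Dnajb11, which hold an ERSE-II, and Vcp, which holds TGACGTGG. They are therefore not a group without any such element. Over all genes tested 10.9% lay wholly above and 10.6% wholly below. Syvn1 carries the same pattern as Hspa5 and had a log2 fold change of -0.12. This comparison is a description of these libraries, without a test.

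**Figure D3:**
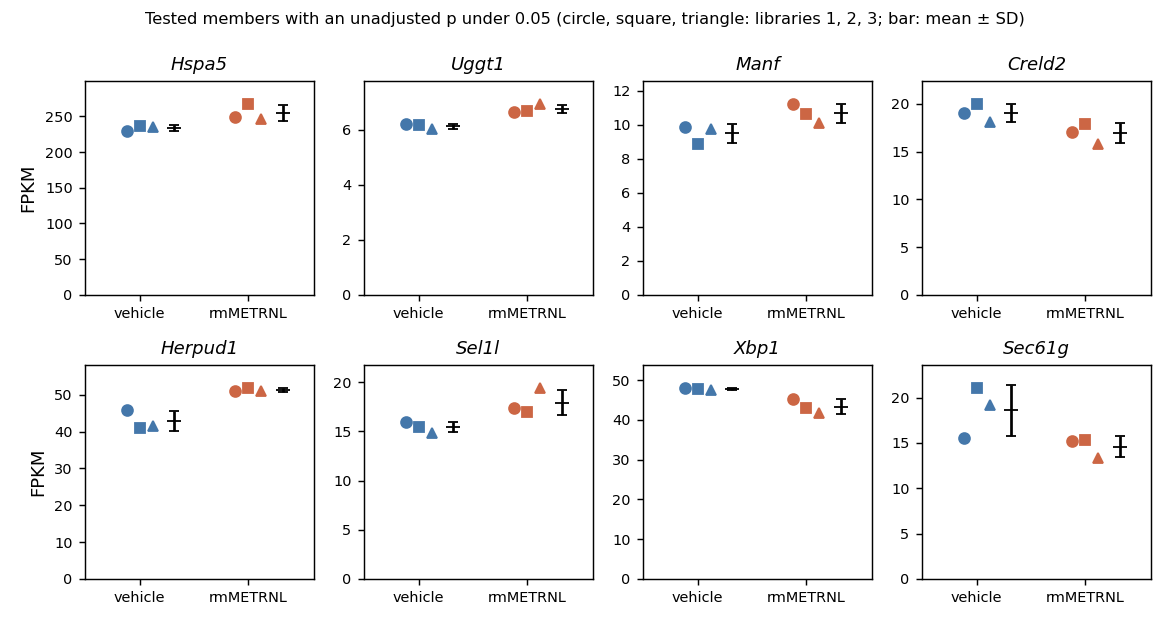
FPKM (y axis from 0) in each library for the 8 tested members with an unadjusted p under 0.05, with circle, square and triangle for libraries 1, 2 and 3 and the black bar for the mean ± SD. The 2 groups of each gene do not overlap, with Hspa5, Uggt1, Manf, Herpud1 and Sel1l higher and Creld2, Xbp1 and Sec61g lower in the rmMETRNL libraries, and the gaps are small beside the levels.

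The sensors and the transcription factor they act on differed in direction. Ern1 measured 14.1, 13.0 and 14.1 FPKM in the vehicle libraries and 14.0, 13.7 and 16.5 FPKM in the rmMETRNL libraries, and Atf6 had 12.8, 13.4 and 12.0 against 12.7, 13.4 and 14.8 FPKM. In both, rmMETRNL library 3 stood highest, and the other rmMETRNL libraries lay within the vehicle range or, for library 2 of Atf6, barely above it. Their log2 fold changes were 0.09 and 0.09 (SE 0.08 and 0.07, adjusted p = 0.632 and 0.593 in limma), and without rmMETRNL library 3 they were 0.01 and 0.04. Both genes are long, and after removal of the trend with gene length described below for Sec61g both were 0.07. Xbp1 (ENSMUSG00000020484, chromosome 11, 5520659 to 5525893, GRCm38) measured 48.0, 47.8 and 47.5 FPKM in the vehicle libraries and 45.3, 42.9 and 41.6 FPKM in the rmMETRNL libraries. All rmMETRNL values were lower. The vehicle libraries had a coefficient of variation of 0.511%, smaller than read counting alone would leave and so not a measure of precision. The log2 fold change was -0.14 (95% interval -0.25 to -0.03, adjusted p = 0.278 in limma). It was negative in all 15 alternative settings, from -0.17 to -0.11, though those of filter, trend and block could not change it.

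The ERAD genes held the 2 largest positive differences of the whole set. Their median log2 fold change was 0.09, with 5 of 7 tested members positive (48.4% of all genes), 4 wholly above the vehicle range (background 10.9%) and 0 below it (background 10.6%), and 0 passed (lowest adjusted p = 0.189 in limma and 0.0736 in voom). This median was 0.04 without rmMETRNL library 2, 0.05 without vehicle library 1 and 0.06 without vehicle library 2. Herpud1 (ENSMUSG00000031770, chromosome 8, 94386438 to 94395377, GRCm38), a membrane protein that organises the ERAD complex and is strongly induced by ER stress, measured 45.9, 41.0 and 41.5 FPKM in the vehicle libraries and 51.1, 51.8 and 51.0 FPKM in the rmMETRNL libraries. The rmMETRNL libraries were nearly identical, closer than read counting alone would leave. Each was above vehicle library 1, the highest of its group. The means were 42.8 ± 2.64 and 51.3 ± 0.465 FPKM (SD, n = 3), 19.8% higher, which is 0.26 ± 0.05 (SE) on the log2 scale, with an adjusted p of 0.189 in limma.

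Sel1l (ENSMUSG00000020964, chromosome 12, 91806043 to 91849157, GRCm38), the adaptor that feeds substrates to the ubiquitin ligase HRD1, measured 15.9, 15.5 and 14.9 FPKM in the vehicle libraries and 17.3, 17.0 and 19.4 FPKM in the rmMETRNL libraries. Every rmMETRNL value was higher, library 3 most of all. The means differed by 0.20 ± 0.06 (SE) on the log2 scale, with an adjusted p of 0.266 in limma. Syvn1, which encodes HRD1 itself, had 5.34 ± 0.355 and 4.85 ± 0.350 FPKM with overlapping groups. The ligase and its adaptor had log2 fold changes of opposite sign, -0.12 and 0.20. Both signs held in all 15 alternative settings, of which those of filter, trend and block could not change them. The difference between ligase and adaptor was not tested.

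Derl1, a membrane protein through which substrates leave the ER, measured 56.3, 53.5 and 56.9 FPKM in the vehicle libraries and 57.9, 60.1 and 59.4 FPKM in the rmMETRNL libraries, a difference of 0.09 ± 0.04 (SE) on the log2 scale with an adjusted p of 0.403 in limma. Edem1, which picks misfolded glycoproteins for destruction, had 43.7, 43.6 and 43.6 FPKM against 44.5, 45.4 and 45.4 FPKM. Its groups were separate with a difference of only 3.32% (adjusted p = 0.616 in limma). Its vehicle libraries had a coefficient of variation of 0.0838%, smaller than read counting alone would leave and so not a measure of precision. Derl2 (0.09) and Vcp (-0.01), the ATPase that pulls substrates out of the membrane, had overlapping groups. The sign of Vcp turned in 4 of the 15 settings, TPM among them. Its level is uncertain, since other genes hold 68.2% of its 31-base words.

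The channel subunits Sec61a1, Sec61b and Sec61g had log2 fold changes of -0.08, -0.16 and -0.32. The members Ssr1 (0.05), Ssr2 (0.07) and Ssr3 (0.08), subunits of the translocon-associated protein complex beside the channel, were positive, while Ssr4 of the same complex, outside the members, was at -0.05. A difference between the complexes was not tested. Each of the 6 members kept its sign in all 15 alternative settings, of which those of filter, trend and block could not change it. The sizes moved, from -0.16 to -0.07 for Sec61b without vehicle library 2 and from 0.08 to 0.03 for Ssr3 without vehicle library 1. Ssr1 ranged from 0.03 to 0.09 with 1 library left out, and Ssr2 from 0.05 to 0.10. The median over the 6 was -0.01 and turned to 0.01 after rescaling to TPM. Of the 6, 0 passed (lowest adjusted p = 0.297 in limma), 0 lay wholly above (background 10.9%) and 2 wholly below the vehicle range (background 10.6%).

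Sec61g (ENSMUSG00000078974, chromosome 11, 16500530 to 16508484, GRCm38), the small gamma subunit, measured 15.6, 21.1 and 19.2 FPKM in the vehicle libraries and 15.2, 15.3 and 13.3 FPKM in the rmMETRNL libraries. The rmMETRNL values lay below all vehicle values, but vehicle library 1 came close to the highest of them. The means were 18.6 ± 2.81 and 14.6 ± 1.14 FPKM (SD, n = 3), a difference of -21.5%, which is -0.32 ± 0.11 (SE) on the log2 scale, with a 95% interval of -0.59 to -0.05 and an adjusted p of 0.297 in limma. Sec61b, the beta subunit, had 29.0, 36.5 and 31.4 FPKM against 31.2, 27.7 and 27.3 FPKM with overlapping groups, and vehicle library 2 was the highest for both genes. The channel-forming alpha subunit Sec61a1 measured 18.3, 18.2 and 17.7 FPKM in the vehicle libraries and 16.5, 17.1 and 17.5 FPKM in the rmMETRNL libraries, separate groups that overlapped after rescaling to TPM. Sequence shared with other genes makes these 3 levels less certain, since 15.7% (Sec61a1), 19.5% (Sec61b) and 21.3% (Sec61g) of their 31-base words are found elsewhere. The deviation of rmMETRNL library 3 from the mean of all libraries also correlated with log gene length across genes at 0.203, against -0.140 to 0.0534 in the other 5. With that trend removed Sec61g had a log2 fold change of -0.30. The long genes Uggt1 and Sel1l then had 0.09 and 0.18, against 0.12 and 0.20 in the main fit. The short gene Creld2 had -0.12 against -0.16. Some other members rose, such as Herpud1 to 0.28 from 0.26. Ssr3, the most abundant translocation gene, measured 51.2, 57.1 and 57.1 FPKM in the vehicle libraries and 56.5, 59.7 and 58.4 FPKM in the rmMETRNL libraries, and the groups overlapped.

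Ufm1, a small protein modifier that is attached to ribosomes at the ER membrane, averaged 7.86 ± 0.586 FPKM in the vehicle and 7.79 ± 0.0407 FPKM in the rmMETRNL libraries (SD, n = 3). It measured 7.33, 7.75 and 8.49 FPKM in the vehicle libraries and 7.84, 7.78 and 7.76 FPKM in the rmMETRNL libraries. Its log2 fold change was -0.01, with a 95% interval of -0.16 to 0.14, and turned positive after rescaling to TPM and without vehicle library 3.

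**Figure D4:**
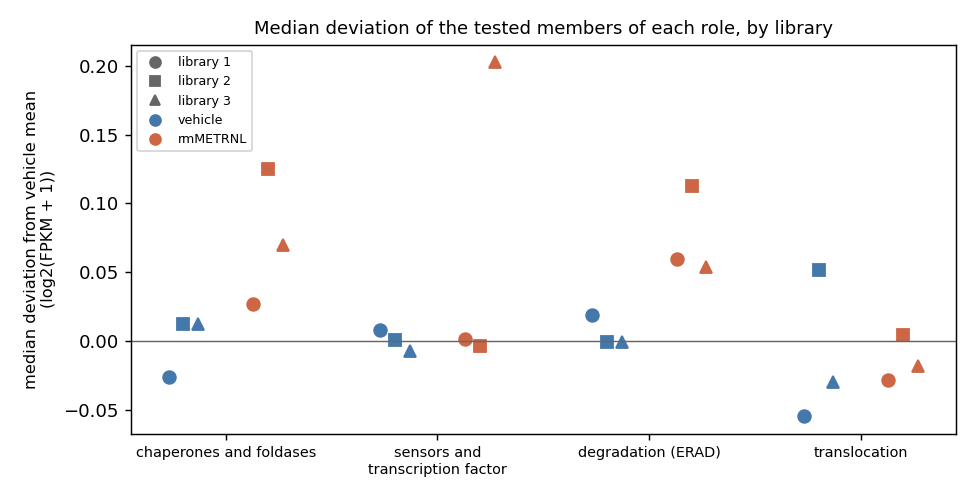
For each of 4 roles, the median over its tested members of the deviation from the vehicle mean (y axis, log2(FPKM + 1)), with 1 point per library. For chaperones and ERAD all 3 rmMETRNL libraries lie above all 3 vehicle libraries, with rmMETRNL library 2 highest at 0.13 and 0.11, while the sensors stand apart only in rmMETRNL library 3 (0.20) and the translocation genes overlap. The vehicle points centre near 0 by construction, and no sets of other genes were compared in this way.

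By library, the chaperone median stood at -0.03, 0.01 and 0.01 in vehicle libraries 1, 2 and 3 and at 0.03, 0.13 and 0.07 in rmMETRNL libraries 1, 2 and 3. The ERAD median stood at 0.02, -0.00 and -0.00 against 0.06, 0.11 and 0.05. Medians by library were not made for sets of other genes, so this separation has no background beside it. Of the 33 tested members, 13 had their highest value in rmMETRNL library 2 and 11 had their lowest in vehicle library 1. The same counts were not made over all genes, so they cannot be read as particular to these members. The summed level of all 34 genes was 1715 to 1784 FPKM with vehicle and 1783 to 1856 FPKM with rmMETRNL, ranges that overlap by little. It made up 0.459% to 0.476% of all FPKM in the vehicle libraries and 0.474% to 0.492% in the rmMETRNL libraries.

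Beyond these members, 83 further genes of ER folding, glycosylation, degradation, translocation, UFMylation and stress signalling were examined as 6 lists, and 79 were tested. Limma called 0 of them, with 15 at an unadjusted p under 0.05 (background 14.7%), and voom called 2, where it called 0.618% of all genes. The first was Ero1l, the oxidase that recharges protein disulphide isomerases, at 424 ± 13.0 and 603 ± 62.8 FPKM (SD, n = 3, log2 fold change 0.50, adjusted p = 0.151 in limma and 0.00435 in voom). Its difference was larger than that of any of the 33 members. The second was Mcfd2, which with Lman1 carries glycoproteins out of the ER, at 44.8 ± 0.853 and 56.3 ± 3.99 FPKM (log2 fold change 0.32, adjusted p = 0.180 in limma and 0.0409 in voom).

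The lists did not share 1 direction. Over all 79 tested genes the median log2 fold change was -0.015, with 39 positive. The further folding and oxidation list had a median of 0.0064, with 8 of 15 positive, against 14 of 16 for the chaperone members. The further translocation and signal peptide list had a median of -0.025, with 7 of 16 positive. For the further UFMylation list the median was -0.084, with 2 of 6 positive. The 17 tested genes of the further ERAD list had a median of -0.04, with 7 of 17 positive. Of these 17, 1 lay wholly above the vehicle range (background 10.9%) and 4 wholly below it (background 10.6%), unlike the ERAD members. The glycosylation and calnexin cycle list had a median of 0.00, with 7 of 13 positive. In the glycosylation list the oligosaccharyltransferase subunits Rpn2 (49.1 ± 0.673 and 42.7 ± 1.42 FPKM) and Ddost (51.6 ± 2.18 and 47.0 ± 1.96 FPKM) and the glucosidase II subunit Prkcsh (36.0 ± 2.30 and 30.7 ± 1.62 FPKM) were wholly lower with rmMETRNL, as was the subunit Dad1 (log2 fold change -0.12). These are 4 of the 13 genes in the list, where 10.6% of all genes were wholly lower. The count holds for FPKM, and after rescaling to TPM the groups of Ddost overlapped. The other oligosaccharyltransferase subunits Rpn1 (0.04), Stt3a (0.10), Stt3b (0.03) and Ostc (0.09) had positive log2 fold changes with overlapping groups. The signal peptidase subunits Spcs2 (17.6 ± 1.19 and 20.6 ± 1.35 FPKM) and Spcs3 (log2 fold change 0.18, overlapping groups) had higher means, while the log2 fold changes of the other signal peptidase subunits were 0.03 (Spcs1), -0.02 (Sec11a) and -0.05 (Sec11c). Of the 12 tested genes in the list of the PERK arm and other stress regulators, 8 were positive, with a median of 0.07. Atf4, Ddit3 and Eif2ak3 are given as the best known members of the PERK arm, although their values had been seen. Atf4, the transcription factor of that arm, stood at 286 ± 2.65 and 288 ± 4.19 FPKM, and Ddit3 (CHOP), its target that promotes cell death, at 28.9 ± 3.64 and 31.7 ± 0.676 FPKM, both with overlapping groups. Eif2ak3, which encodes the sensor PERK, was low at 1.53 ± 0.175 and 1.66 ± 0.0991 FPKM.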

How the data were processed

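RNA-seq of 6 macrophage samples, 3 with vehicle and 3 with rmMETRNL before Candida albicans, was analysed from 1 table of 54532 genes. The authors deposited values in FPKM with gene length. The aligner, the counting tool and the strand setting were not given in the sources used here. The genome builds named in the submitters' processing notes are GRCm38 and mm10. The positions of the 34 members in the table were identical to GENCODE M21 on GRCm38, which is the same assembly as mm10.

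FPKM values were whole multiples of 1 read for 100% of values (tolerance 0.05 reads), which gave 13235001 to 18145733 reads per library, and 10 reads on a 1 kb gene correspond to 0.549 to 0.748 FPKM. The 9867 genes averaging 1 FPKM or more were tested with limma 3.58.1 (R 4.3.3) on log2(FPKM + 1) with a mean-variance trend, and p-values were adjusted by Benjamini-Hochberg over all of them, with a threshold of 0.05. Fold changes on this scale understate those of low genes. The design had foreseen counts or normalized values, and the file held FPKM, so limma was the main test and limma voom on the recovered reads an alternative. The fit was also run on simulated data. The changes simulated were larger than nearly all differences of the members, so that run does not bear on them.

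The members and lists were chosen with earlier results of these data known. Per-library values are given for members with an unadjusted p under 0.05 or without overlap between groups, for Ern1, Atf6 and Xbp1 and for the most abundant member of each role. Pathway genes with an unadjusted p under 0.05 could be named with values. Other members and the further genes Ssr4, Dad1, Rpn1, Stt3a, Stt3b, Ostc, Spcs1, Sec11a, Sec11c, Atf4, Ddit3 and Eif2ak3 were given values in addition, after those values had been seen. Alternatives were other scalings (TPM, median-of-ratios), filters, a pseudocount of 0.1, removal of length trends, a fit without the mean-variance trend, a replicate block and leaving out each library.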

Additional observations from a re-analysis of the deposited data

How the results depend on the processing

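Of the values under the alternatives, 404 were counted as unchanged, 11 moved and 5 values, all of P4hb or Ufm1, turned direction. Unchanged meant within 1.5 times for a count and within 1 SD between libraries for a median. For a gene it meant the same sign and side of the threshold, whatever the size. Ern1 at 0.01 without rmMETRNL library 3, against 0.09 in the main fit, is thus among the 404. Single genes here are the members chosen by the rule for per-library values. The filters, the fit without the trend and the replicate block cannot alter a fold change, so their signs were fixed. Among the 404, the translocation median also turned sign, from -0.01 to 0.0065 in TPM. No setting called a member (0 in each), and the adjusted p of Herpud1 (limma or voom) ranged from 0.0736 to 0.410 over the settings. Over all genes, 5 were called without a filter and 61 by voom, against 0 in limma. Rescaling to TPM left 2 members wholly below the vehicle range in place of 4 (8.35% of all genes) and put 11 wholly above in place of 8 (12.3% of all genes). Leaving out 1 library at a time gave 8 to 13 members wholly above the vehicle range, against 14.6% to 17.0% of all genes there, since fewer libraries make separation easier. The highest count, 13, came without rmMETRNL library 1 and without vehicle library 3. In these runs the median over all members ranged from 0.041 to 0.088 and that of ERAD from 0.041 to 0.11, and the median over all members reached 0.092 in TPM. The causes of the other shifts were not tested. P4hb turned to -4.0e-05 in voom, to -0.0054 without rmMETRNL library 2 and to -0.0086 without vehicle library 1, and ranged up to 0.020 with other libraries left out. Ufm1 turned to 0.010 in TPM and to 0.042 without vehicle library 3, and was -0.051 without vehicle library 1. With the replicate number as a block 0 members were called, and Herpud1 had a log2 fold change of 0.26 (adjusted p = 0.311 in limma). Same-numbered libraries had correlations of deviations of -0.02, 0.0074 and -0.05 across genes, so the numbers were not taken as pairs. Depth limited Derl3 to 0 to 6 reads per library, and 3 libraries per group limit the precision of every difference.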
